A study of Homo sapiens with 6 samples.

Results

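XAF1 and the inhibitor of apoptosis pathway that it acts on were followed in HEK293, a cell line derived from human embryonic kidney. The set holds 8 genes chosen by symbol (XAF1, XIAP, BIRC2, BIRC3, BIRC6, DIABLO, HTRA2 and CASP9) out of 18417 genes with a symbol of their own on the array. Of the 8, 7 had a transcript cluster of their own (the set of probes that reads 1 transcribed locus), each had exactly 1, and 0 clusters were shared with another symbol. BIRC3 had no such cluster in the annotation used here and is not analysed here. The set was put together with the treatment against control result of these arrays known, XAF1 above all, so the members' values in that comparison are a description, and where the calls of the fit over all clusters are counted for them, nothing is read from those counts.

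The study asked which mediators accompany an anti-HIV effect seen after transfection of an empty plasmid. Of its 6 arrays, 3 are labelled treatment, whose source field names a Neo vector, and 3 are labelled control, whose source field names a transient vector. The series' design text instead sets cells that received pCMV9 against untreated cells, so the groups are called treatment and control here. Both groups are HEK293 cells from ATCC, and the labels state neither a vector dose nor a time of harvest. No label says that replicates came from separate cultures, so every error and p below covers array-to-array spread, which may be technical.

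Inhibitor of apoptosis proteins carry a zinc-binding fold, the BIR domain, with which some of them hold caspases, the proteases that carry out apoptosis, in check. When mitochondria release cytochrome c, caspase 9 is activated on the apoptosome, and the mitochondrial proteins DIABLO (Smac) and HTRA2 (Omi), released alongside, bind the BIR domains and free the caspases. XAF1 (XIAP-associated factor) is a zinc finger protein described as an antagonist of XIAP and as a gene induced by interferon.

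The arrays gave median intensities between 77.2 and 84.2 over 33297 clusters. On the log2(intensity + 16) scale, arrays of the same group correlated across clusters at Pearson's r of 0.956 to 0.985 and arrays of different groups at 0.957 to 0.981, and treatment replicate 3 stood farthest from the rest (mean r of 0.963 with the other arrays). All 7 listed HEK293 markers (VIM, KRT8, KRT18, NEFL, NEFM, PAX2 and LHX1) had group means above the 95th percentile of 360 olfactory receptor clusters, taken here as a background level (67.4 in treatment and 51.2 in control arrays). Of 7 measured leukocyte markers 1, CD14, lay above that level in both groups, and of 6 fibroblast markers 3 did in treatment and 2 in control arrays. The summed intensity of the leukocyte markers ran from 306 to 410 in treatment and from 291 to 335 in control arrays. That of the fibroblast markers ran from 447 to 583 in treatment and from 473 to 675 in control arrays. Both sums overlapped between the groups. Within the fibroblast list, COL1A1 (log2 change -0.46) was lower in every treatment array, and COL1A2 (0.47) and PDGFRB (0.64, below the background level) were higher. These 3 of 6 genes had an unadjusted p under 0.05 by limma, beside 7.3% of all clusters. The sum of the HEK293 markers ran from 6383 to 6773 in treatment and from 7124 to 7443 in control arrays, without overlap. The groups of 3 of these 7 genes did not overlap, beside 14.6% of all clusters. VIM (log2 change -0.29) and KRT18 (-0.23, read from the cluster with the highest mean of its 2) were lower in every treatment array, and PAX2 (0.76) was higher. The part of these markers in the results below was not tested.

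XAF1 moved far apart from the other members. Its intensity was 299, 680 and 488 in treatment replicates 1, 2 and 3, against 7.43, 17.6 and 8.25 in control replicates 1, 2 and 3. The groups did not overlap, and the lowest treatment array read 17.0 times the highest control array. The means were 489 ± 190 in treatment and 11.1 ± 5.64 in control arrays (SD, n = 3 each), a log2 change of 4.17 ± 0.276 (SE) on the log2(intensity + 16) scale, or 18.0-fold.

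The control level of XAF1 could not be told from background. The control mean lay below the offset of 16, above 35.8% of the olfactory receptor clusters and below the rest, so the size of the change depends on the offset: the log2 change was 3.08 with an offset of 50, 5.36 with an offset of 1 and 5.50 with none. Set against the 95th percentile of the olfactory receptor clusters on each control array, XAF1 was at least 8.37-fold higher in treatment arrays on the linear intensity scale, or at least 6.73-fold with the offset of 16 that the 18.0-fold includes. Each array reads the RNA of a whole culture, so more cells with XAF1 transcript and more transcript per cell cannot be told apart.

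**Figure D1:**
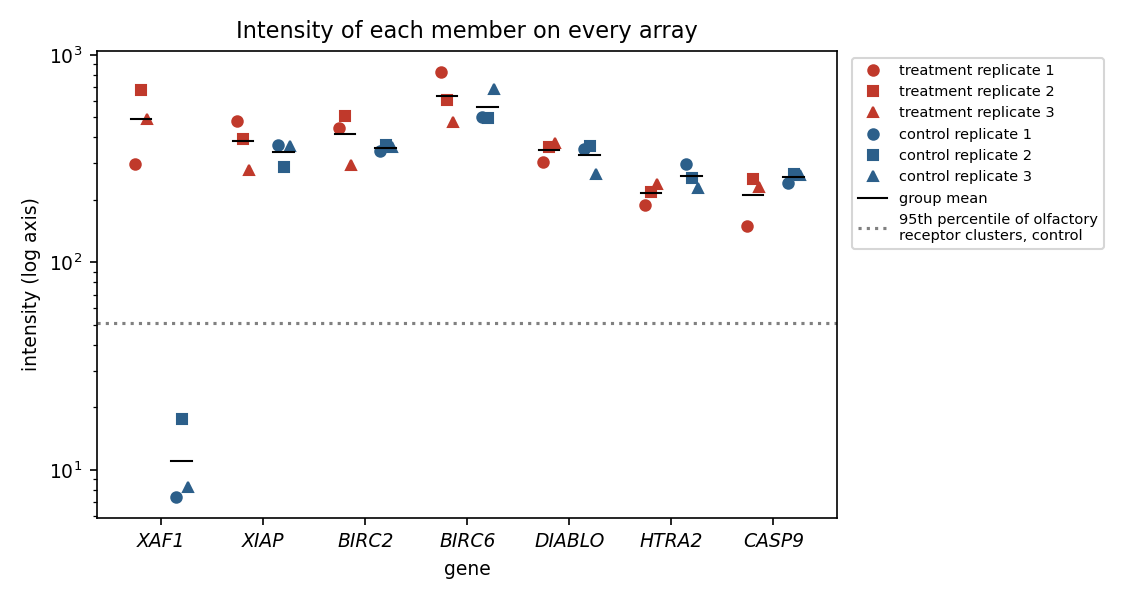
Intensity (log axis) of the 7 measured members on each array, treatment in red to the left and control in blue to the right of each gene, with symbols for replicates, black lines for group means and a dotted line at the 95th percentile of olfactory receptor clusters in control arrays (51.2). XAF1 lies at 299 to 680 in treatment and 7.43 to 17.6 in control arrays, while the groups of the other 6 genes overlap and lie above the dotted line.

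The start of XAF1 is shown because it is the member whose transcript differed most. RefSeq windows of 250 bases before to 50 after a start (GRCh38.p14) existed for all 8 members, 18 windows in all, and were searched on both strands for GAAANNGAAA, the core of the interferon-stimulated response element, for GAAANGAAA, which has a gap of 1 base in place of 2, and for TTCNNNGAA, the gamma-activated site core. The motifs were picked after the XAF1 window had been read. The only match among the 18 windows was GAAACGAAA at the first XAF1 window, chr17:6755796-6756095 on the plus strand, where it begins at position -5 from the start. GAAANGAAA occurs in 3.12% of 35116 such windows of all genes, GAAANNGAAA in 3.57% and TTCNNNGAA in 7.66%. The capitals mark the match.
XAF1: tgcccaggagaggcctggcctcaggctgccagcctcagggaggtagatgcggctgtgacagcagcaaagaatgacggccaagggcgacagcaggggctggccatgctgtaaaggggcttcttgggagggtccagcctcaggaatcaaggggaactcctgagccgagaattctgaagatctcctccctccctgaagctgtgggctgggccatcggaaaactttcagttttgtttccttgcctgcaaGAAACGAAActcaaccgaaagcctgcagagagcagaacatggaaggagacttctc

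The 5 genes whose profile over the 6 arrays was closest to that of XAF1 were TRIM22, IFIT2, IFI44, MX2 and RSAD2. Closeness was measured as the root mean square difference of log2(intensity + 16) after subtracting each gene's control mean, over the 6 arrays and 18416 other genes, whose median difference was 2.99. TRIM22, a RING protein that restricts HIV transcription, was closest at 0.229, followed by IFIT2, which binds viral RNA, at 0.285, IFI44 at 0.307, MX2, a dynamin-like inhibitor of HIV, at 0.323 and RSAD2 (viperin) at 0.352. The log2 changes of these genes were 4.23, 4.31, 4.11, 4.45 and 4.59 in that order. Likeness over these arrays chose the 5 genes, so their shared pattern is no separate result. In XAF1, treatment replicate 1 was the lowest and treatment replicate 2 the highest of the treatment arrays. Among the 119 clusters that rose, 54 (45.4%) had treatment replicate 1 lowest, replicate 3 between and replicate 2 highest, as against 7.4% of all clusters. Treatment replicate 2 gave XAF1 at 2.28 times the intensity of replicate 1. On the control side, XAF1 and RSAD2 were highest in replicate 2, while TRIM22, IFIT2, IFI44 and MX2 were highest in replicate 3.

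**Figure D2:**
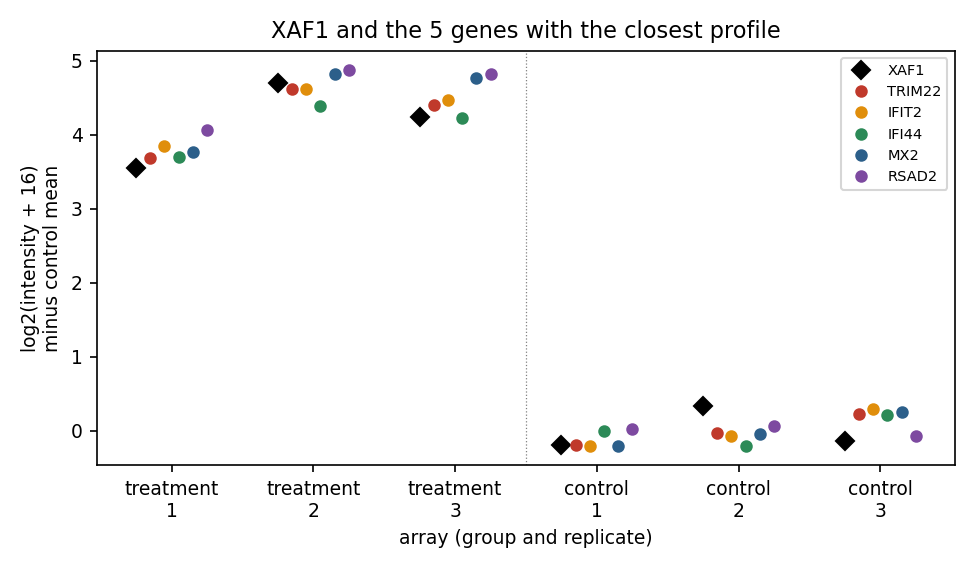
Difference of log2(intensity + 16) from the gene's own control mean (vertical axis, log2 units) for XAF1 (black diamonds) and the 5 genes with the closest profile (coloured circles) on the 3 treatment arrays, left, and the 3 control arrays, right. The 5 genes were chosen for lying close to XAF1 on these arrays, with root mean square differences of 0.229 to 0.352.

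The sequences used here held no window for TRIM22, IFIT2 or MX2, so these genes could not be searched. Windows were held for IFI44 and RSAD2, and both contain matches. Among all windows, GAAANGAAA occurs in 3.12% and GAAANNGAAA in 3.57%. The motifs were picked from the XAF1 window and the genes for likeness to XAF1, so nothing is read from the presence of these matches. They are shown beside XAF1, with 10 bases on each side on the strand of the match and the match in capitals, to compare the letters. The RSAD2 window at chr2:6865635-6865934 (plus strand) holds 4 matches of GAAANGAAA, at positions -152, -118, -84 and -60, all with the letters GAAACGAAA found in XAF1. This window belongs to the upstream of 2 separate RSAD2 starts. The window of the downstream start (chr2:6877527-6877826) holds no GAAANGAAA, and holds GAAANNGAAA at -145 on the opposite strand. In IFI44 (chr1:78649539-78649838, plus strand) the match of GAAANNGAAA lies on the opposite strand and overlaps a match of GAAANGAAA whose letters, GAAAGGAAA, are not those of XAF1. A match is a description of letters and shows no binding.
XAF1: ttgcctgcaaGAAACGAAActcaaccgaa
RSAD2 at -152: ccccgcctcgGAAACGAAAcctggcggga
RSAD2 at -118: gcgccggcggGAAACGAAAcccggaggga
RSAD2 at -84: gcgccagcggGAAACGAAAgcgaagcgtt
RSAD2 at -60: gcgttgcgggGAAACGAAAgccggaggcc
RSAD2 at -145, other window: ttccacatgtGAAACTGAAAgttgaaacag
IFI44 at -18: tcagagaaagGAAACTGAAActcagtgtgc
IFI44 at -12: aagactcagaGAAAGGAAActgaaactca

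Of the inhibitors of apoptosis in the set, XIAP, BIRC2 and BIRC6 were measured, and the groups of each overlapped. XIAP, which binds and blocks caspases directly, read 478, 395 and 280.2 in treatment and 366, 288 and 362 in control replicates 1, 2 and 3. The treatment arrays spanned the control arrays, with replicates 1 and 2 above all of them and replicate 3 below all of them. The means were 384 ± 99.3 in treatment and 339 ± 44.1 in control arrays (SD, n = 3 each), a log2 change of 0.15 (95% interval -0.34 to 0.64).

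BIRC2 (cIAP1), a ubiquitin ligase of TNF receptor complexes, had the same arrangement. It read 442, 507 and 294 in treatment replicates 1, 2 and 3, against 345, 366 and 359 in control replicates. Its control arrays were tightly grouped (357 ± 11.0, SD, n = 3) and its treatment arrays were not (414 ± 109). The log2 change was 0.17 (95% interval -0.31 to 0.66). BIRC6, a very large BIR protein that is also a ubiquitin-conjugating enzyme, read 827, 609 and 475 in treatment and 499.98, 498 and 682 in control replicates, a log2 change of 0.16 (95% interval -0.35 to 0.67). The groups overlapped, and treatment replicate 3 was again the lowest of all arrays.

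Treatment replicate 3 was thus the lowest of the 6 arrays for 3 of the 7 members, XIAP, BIRC2 and BIRC6, and it is also the array that stood farthest from the rest. It was the lowest array for 29.2% of all clusters. The pattern of XIAP and BIRC2, with replicate 3 lowest and both other treatment arrays above every control array, occurred in 5.71% of all clusters and was picked out after the values were seen. Without treatment replicate 3 the log2 changes were 0.35 for XIAP, 0.39 for BIRC2 and 0.35 for BIRC6, and without treatment replicate 1 those of XIAP and BIRC6 were -0.02 and -0.04. Within the treatment arrays, XAF1 and BIRC2 were both highest in replicate 2, XIAP and BIRC6 in replicate 1, and XAF1 was lowest in replicate 1.

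Of the mitochondrial antagonists of these inhibitors, DIABLO was close between the groups and HTRA2 was lower in most treatment arrays. DIABLO, which displaces caspases from XIAP, read 303, 358 and 378 in treatment and 352, 364 and 267 in control replicates 1, 2 and 3, with overlapping groups and a log2 change of 0.08 (95% interval -0.36 to 0.53). HTRA2, a serine protease with the same type of inhibitor-binding end, read 189, 218 and 238 in treatment and 299, 254 and 228 in control replicates. Treatment replicates 1 and 2 lay below every control array and replicate 3 did not, and the log2 change was -0.25 (95% interval -0.69 to 0.18).

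CASP9, the initiator caspase of the apoptosome, read 149.9, 252 and 231 in treatment and 240.3, 267 and 263 in control replicates 1, 2 and 3. Treatment replicates 1 and 3 lay below every control array, and replicate 2 lay within the control range. The means were 211 ± 53.9 in treatment and 257 ± 14.6 in control arrays (SD, n = 3 each), a log2 change of -0.29 (95% interval -0.77 to 0.18), which was -0.08 without treatment replicate 1 and -0.43 without treatment replicate 2.

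**Figure D3:**
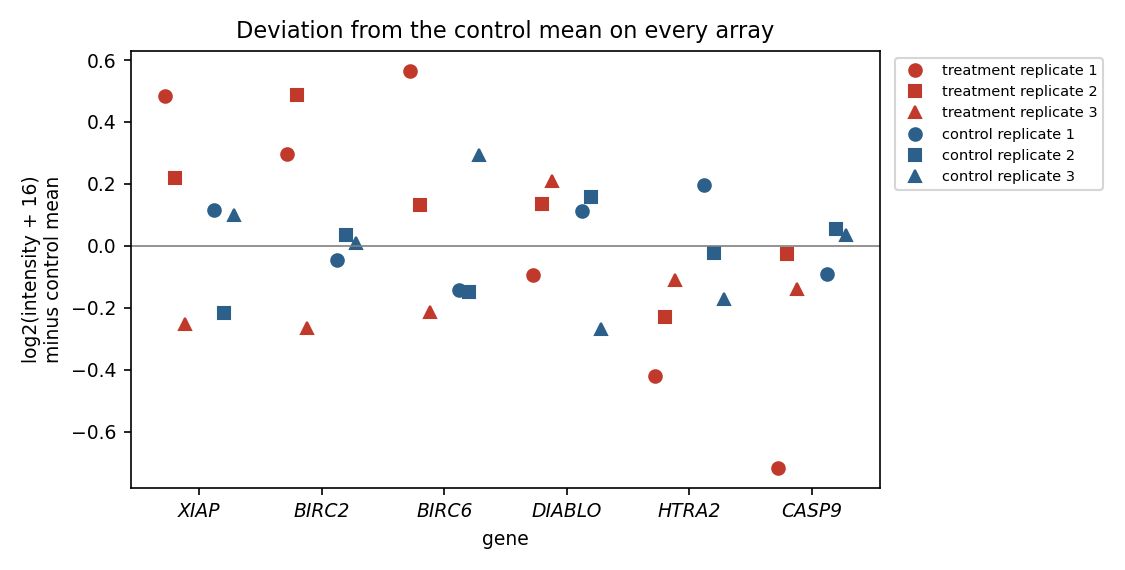
Difference of log2(intensity + 16) from the gene's own control mean (vertical axis, log2 units) on each array for the 6 measured members other than XAF1, treatment in red to the left and control in blue to the right, with symbols for replicates. Treatment replicate 3 (red triangles) is the lowest array for XIAP, BIRC2 and BIRC6, and treatment replicate 1 (red circles) the lowest for HTRA2 and CASP9.

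Across the set, 1 of the 7 measured members, XAF1, passed limma's test at an adjusted p under 0.05, a threshold passed by 0.372% of all clusters. Its groups were also the only ones without overlap, which 14.6% of all clusters showed. Since the set was chosen on this comparison, nothing is read from these counts. The 6 other members had log2 changes from -0.29 to 0.17 with a median of 0.12, beside a median of 0.01 over all clusters and 0.12 over the olfactory receptor clusters. None of their intervals reached the smallest change that passed among all clusters, 1.06 on the log2 scale, in either direction.

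**Figure D4:**
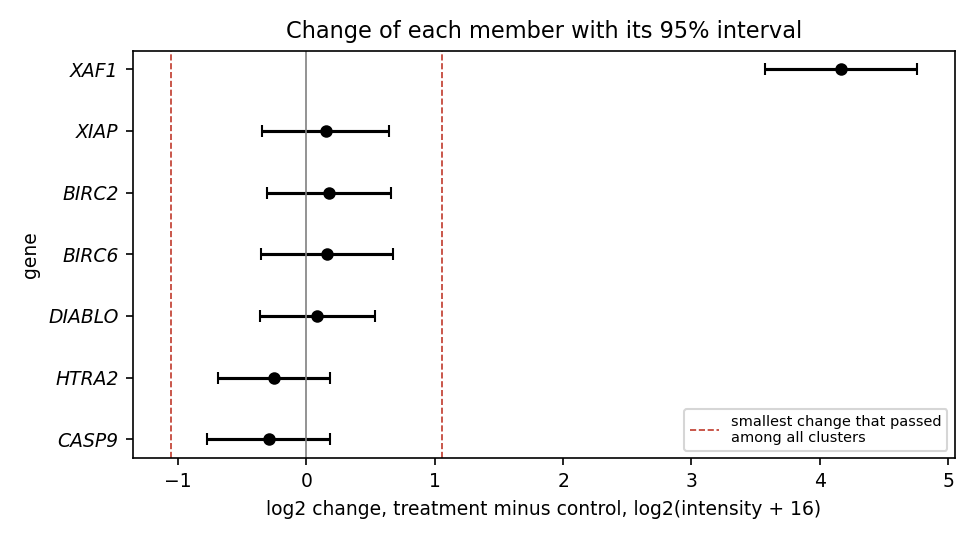
Log2 change, treatment minus control, on the log2(intensity + 16) scale (horizontal axis) with its 95% interval for each measured member. Dashed red lines mark a change of 1.06 in either direction, the smallest that passed limma's test among all clusters, and XAF1 at 4.17 is the only member beyond them.

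The genes beside XAF1 and beside the BIRC2 and BIRC3 pair in the RefSeq gene order had smaller log2 changes than XAF1, and 0 of the 8 passed limma's test, which 0.372% of all clusters did. FBXO39, TEKT1 and MMP7, 3 of the 8, had an unadjusted p below 0.05, beside 7.3% of all clusters. These 3 were higher in every treatment array and MED31 was lower in every treatment array. Groups without overlap were seen in 14.6% of all clusters. FBXO39, an F-box protein gene on one side of XAF1, read 71.1, 89.3 and 107 in treatment and 25.0, 53.9 and 37.5 in control replicates 1, 2 and 3. Its groups did not overlap, its control mean of 38.8 was below the background level, and the log2 change, which therefore depends on the offset, was 0.96 ± 0.237 (SE; limma, adjusted p = 0.243). TEKT1, the next measured gene on that side and one of a sperm flagellum protein, read 46.0, 37.6 and 38.6 in treatment and 22.8, 25.6 and 4.66 in control replicates, all below the background level (0.82 ± 0.259, adjusted p = 0.528). On the other side of XAF1, the citrate transporter gene SLC13A5 had a log2 change of 0.33 and the Mediator subunit gene MED31 one of -0.23. Around BIRC2 and BIRC3, the log2 changes were -0.28 for YAP1, a Hippo pathway coactivator, -0.06 for CFAP300, below the background level in both groups, and 0.12 for TMEM123. The matrix metalloproteinase gene MMP7 averaged 32.7 in treatment and 19.2 in control arrays, below the background level in both (0.47, adjusted p = 0.68).

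Of 58 listed genes that act around the members, in 6 lists, 51 were measured. Of these 1 rose and 0 fell, 5 (9.8%) had an unadjusted p under 0.05, as did 7.3% of all clusters, and the median log2 change was 0.06. The lists were written with earlier results of these arrays known. The gene that rose was IRF1, a transcription factor reported to induce XAF1, which read 166, 239 and 204 in treatment and 77.3, 85.5 and 85.8 in control replicates 1, 2 and 3. Its groups did not overlap, and the log2 change was 1.13 ± 0.205 (SE; limma, adjusted p = 0.0254). That call ended without any 1 of the control arrays and without treatment replicate 2 or 3 (adjusted p from 0.0823 to 0.285), while the log2 change stayed between 1.02 and 1.26.

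The other measured genes linked to XAF1 (TRAFD1, TRAF6, SIAH2, RNF114 and HIPK2) did not pass. TRAFD1, which shares TRAF-type zinc fingers with XAF1, had a log2 change of 0.03 and the ubiquitin ligase RNF114 one of 0.38 (adjusted p = 0.701). The list of 6 had a median of 0.10.

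Of the other 4 BIR proteins (NAIP, BIRC5, BIRC7 and BIRC8), 0 passed limma, and 0 reached an unadjusted p under 0.05. Survivin (BIRC5), which acts in cell division as well as in apoptosis, read 377, 410 and 499 in treatment and 590, 551 and 501 in control replicates. These values are from the cluster with the highest mean of the 2 that the gene has, and the other was not read. Every treatment array lay below every control array there, though replicate 3 of both groups differed little. The log2 change was -0.35 ± 0.202 (SE, limma adjusted p = 0.72). BIRC7 (livin) had a log2 change of 0.44 (adjusted p = 0.698).

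Of the 8 measured caspases, 0 passed limma, and 2 reached an unadjusted p under 0.05, as did 7.3% of all clusters. These were CASP5 and CASP4, both inflammatory caspases that sense bacterial lipopolysaccharide. CASP5 read 50.6, 63.9 and 61.0 in treatment and 6.09, 25.8 and 35.6 in control replicates, near or below the background level, changing by 1.04 ± 0.278 on the log2 scale (SE; adjusted p = 0.338 by limma). That change was 0.60 with an offset of 50, 1.71 on the plain log2 scale and 0.68 without control replicate 1. CASP4 read 169, 220.5 and 202 in treatment and 126, 114 and 125 in control replicates, with a change of 0.62 ± 0.198 (adjusted p = 0.528). The groups of 3 of the 8 caspases did not overlap, beside 14.6% of all clusters. CASP5 and CASP4 were higher in every treatment array, and CASP6 was lower. CASP8, the initiator caspase of death receptors, and CASP6, an executioner caspase, had log2 changes of 0.12 and -0.40. The 8 had a median of 0.14.

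The apoptosome and mitochondrial list (APAF1, CYCS, ENDOG, AIFM1 and SEPTIN4) held 0 genes that passed limma and 0 with an unadjusted p under 0.05, with log2 changes from -0.26 for AIFM1 and -0.25 for ENDOG to 0.07 for cytochrome c (CYCS). In the BCL2 family, whose members open or guard the mitochondrial membrane, 0 of 16 measured genes passed limma, and 1 reached an unadjusted p under 0.05, BCL2 itself (142, 131 and 129.8 in treatment and 59.0, 94.0 and 115 in control replicates, log2 change 0.55 ± 0.229, adjusted p = 0.674). The change of BCL2 was 0.32 without control replicate 1 and 0.73 without control replicate 3. MCL1, an anti-apoptotic member, had a log2 change of 0.29, and the family's median was 0.04.

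Among 12 measured partners of the inhibitors in TNF and NF-kB signalling, 0 passed limma, and 1 reached an unadjusted p under 0.05. That gene was NOD2, a receptor for bacterial peptidoglycan, with means of 48.2 in treatment and 24.9 in control arrays, both below the background level (0.64 ± 0.239 on the log2 scale, SE; adjusted p = 0.636). Its change was 0.38 at an offset of 50 and 0.96 on the plain log2 scale. TRAF1, an adaptor that binds cIAPs, was below that level as well, at 39.3 in treatment and 26.0 in control arrays (0.38). The median was 0.06. The array pattern of XIAP and BIRC2, with treatment replicate 3 lowest and the other treatment arrays above every control array, was shared by 3 of the 51 listed genes (5.88%), CASP8, TAB2 and MAP3K7, beside 5.71% of all clusters.

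**Figure D5:**
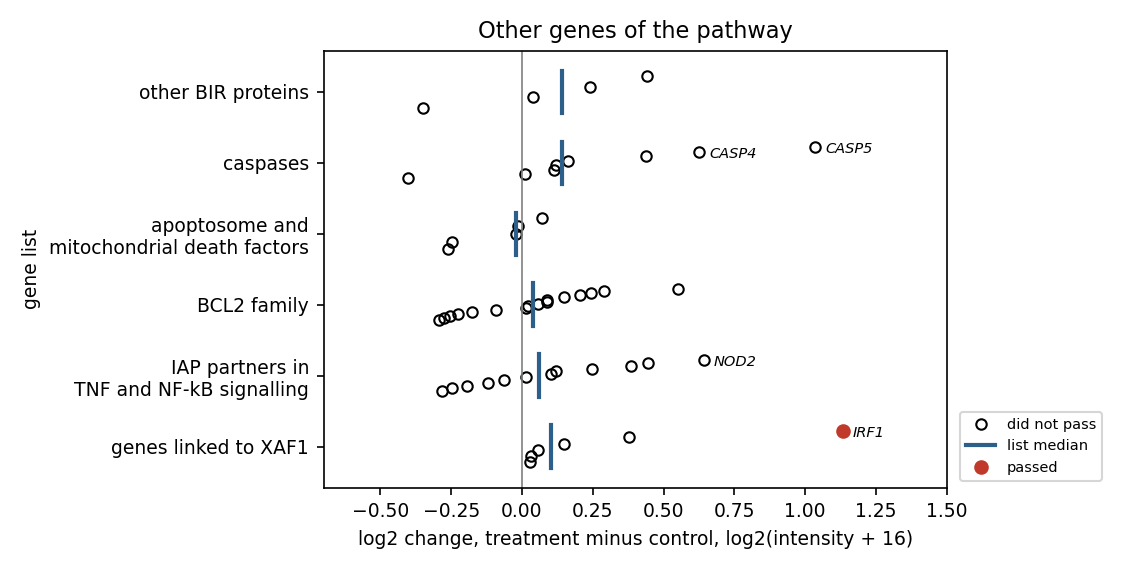
Log2 change, treatment minus control, on the log2(intensity + 16) scale (horizontal axis) of the 51 measured genes in 6 lists, 1 circle per gene, with a blue bar at each list's median. IRF1 at 1.13 is the filled circle, the gene that passed limma's test, and the open circles lie between -0.40 and 1.04.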

How the data were processed

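RNA from HEK293 cells was read on 6 biotin-labelled Affymetrix Gene ST arrays, 1 colour each, 3 treatment and 3 control arrays by their titles. The authors deposited 1 linear intensity per cluster and array. Partek is named in the submitters' processing notes, and the sources used here state no background correction, normalization or probe summary. No detection calls were used, and the number of arrays limits the precision.

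The platform annotation of 2016 gave 1 symbol to 19460 of 33297 clusters, several to 1754 and none to 12083. A gene outside the set with several clusters was read from the one with the highest mean. An offset of 16 was added before log2, and limma 3.58.1 in R 4.3.3 compared treatment with control, two-sided and without a block, with Benjamini-Hochberg adjustment over all clusters. Fold changes of dim clusters are understated on this scale. The code of the fit was run on simulated data with independent noise on each array, which does not show how small a change it can call in these data. Named are all members, list genes that passed or had the 2 lowest p of their list, the 5 genes closest to XAF1, and the 2 nearest measured genes on each side of XAF1 and of the BIRC2 and BIRC3 pair; others were chosen after their values were seen. The members, lists and alternatives were chosen with earlier results of these data known. The alternatives were other offsets, a block for the replicate number, quantile normalization, median centring, filters on dim clusters, other variance priors, a stricter threshold and leaving out each array.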

Additional observations from a re-analysis of the deposited data

How the results depend on the processing

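XAF1, which was chosen for its rise, so that its sign and call are no sign of stability, had a log2 change of 5.50 on the plain log2 scale, 5.36 at an offset of 1 and 3.08 at an offset of 50, and 3.90 to 4.47 when 1 array was left out. The number of clusters passing was 124, and it was 40 on the plain log2 scale, 58 at an offset of 1 and 69 to 129 when 1 array was left out (69 without control replicate 1, 82 without treatment replicate 2). The count of passing list genes, which was 1, became 0 on the plain log2 scale, at an offset of 1, with the replicate block or an adjusted p under 0.01, and was 0 to 1 when 1 array was left out. The cause was not tested. Of the 6 other members, also chosen with this comparison known, the signs of XIAP, BIRC6 and DIABLO each turned under 1 of 16 settings. Leaving out 1 array gave log2 changes of 0.28 to 0.56 for BIRC7, -0.35 to -0.12 for ENDOG and -0.40 to -0.11 for AIFM1. The replicate numbers were not taken as pairs, because no label says that a number marks a shared culture or day. Same-numbered arrays did not deviate together (r = -0.17, 0.08 and -0.36 over clusters). The highest r joined arrays of different number, 0.36 for treatment 1 with control 3 and 0.22 for treatment 3 with control 1. With the replicate block 105 clusters passed, and IRF1 had an adjusted p of 0.0891, where its 16 settings gave 0.00502 to 0.285 and 8 of them ended its call.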
